A study of Mus musculus with 4 samples.

Results

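The 10 genes described here encode the cyclin-dependent kinase inhibitors p27 (Cdkn1b) and p57 (Cdkn1c) and the ubiquitin ligase parts that set how long such proteins last. They were chosen by name, and all 10 were found among the 14533 genes of the deposited table. The RNA came from mouse embryonic stem cells (ESCs), with 2 libraries of serum ESCs and 2 of 2i ESCs. Serum ESCs were kept in medium with serum, and 2i ESCs in serum-free medium with PD0325901, which inhibits the kinase MEK, and CHIR99021, which inhibits the kinase GSK3. Both cultures had over 20 days to adapt. Both received the cytokine LIF according to the study's methods. All 4 libraries are labelled late G1-phase, as is this comparison in the study, whereas the series description names early G1-phase. The labels name no cell line. In the study's methods, G1 cells were sorted from ESCs that carry the FUCCI cell-cycle reporter.

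p27 and p57 bind cyclin-CDK complexes and hold back entry into S-phase. p27 is removed largely by protein turnover. In the SCF ubiquitin ligase, Cul1 is the scaffold, Rbx1 the RING subunit that recruits the ubiquitin-conjugating enzyme, Skp1a the adaptor, and an F-box protein the receptor that picks the substrate. Skp2 is the receptor for phosphorylated p27 and p57, and it needs the small protein Cks1 (Cks1b) to bind p27. Fbxw7 receives cyclin E and Myc, and Btrc receives beta-catenin and Emi1. RNA levels do not report on protein levels or on turnover.

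Depth ranged from 18939401 to 26570098 whole reads per library. The protein-coding share of reads was 46.9% and 76.3% for serum replicates 1 and 2 and, in the same order, 57.8% and 66.3% for 2i. The 10 most abundant genes took 17.5% to 50.6%. The 8 ESC markers summed to 50612 and 66496 normalized counts in serum against 54823 and 67558 in 2i, so the labelled cell type was present in all libraries. Normalized counts are gene counts divided by a size factor per library. In bulk RNA, fewer cells that express a gene and less RNA per cell cannot be told apart.

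The clearest difference between culture conditions was in Skp2, at 1129 and 1601 normalized counts in serum against 485 and 477 in 2i. Cks1b, Cks2 and Fbxw7 were also higher in both serum libraries than in both 2i libraries, whereas Cdkn1b was nearly equal. That order of libraries was found for 4 of 10 members and for 20.5% of all genes tested. For Cks1b it rested on a margin of only 0.0085 on the log2 scale. No member passed the main test, limma with an adjusted p under 0.05 and a 2-fold difference. That test called 0% of the 13005 genes tested as higher in serum and 0.0154% (2 genes) as higher in 2i. All 10 members passed the floor on low values, a mean of 50 normalized counts in either group, although Cdkn1c passed only through 2i, with a mean of 61.3 against 48.4 in serum.

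**Figure D1:**
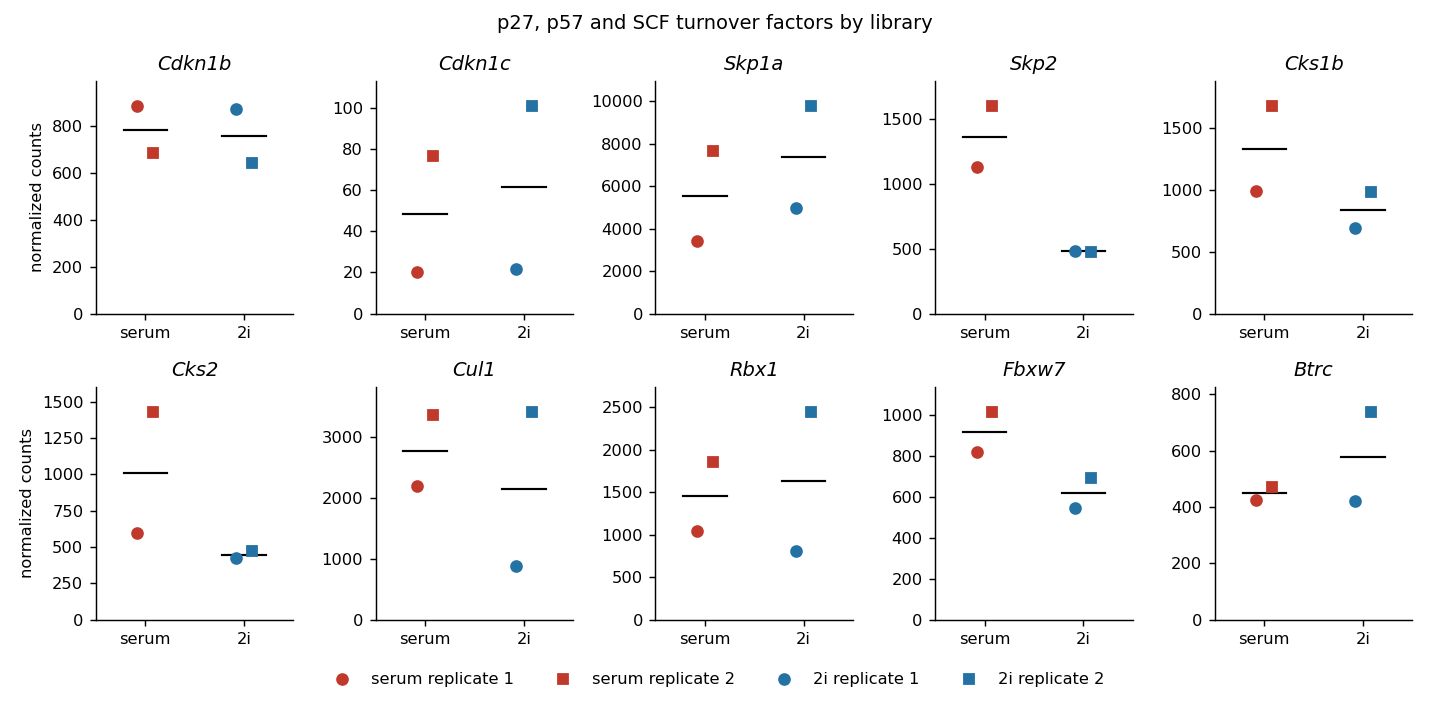
Normalized counts of the 10 genes in each library, with 2 serum and 2 2i libraries per gene. Each gene has its own panel and its own linear axis. For Skp2 both serum points, at 1129 and 1601, lie above both 2i points, at 485 and 477. The heights of the Cdkn1b points overlap, at 887 and 685 in serum against 874 and 645 in 2i.

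Of the kinase inhibitors, Cdkn1b (ENSMUSG00000003031, mm9 chr6:134870419-134875531, plus strand) measured 887 and 685 normalized counts in serum against 874 and 645 in 2i. The groups overlapped, and in both conditions replicate 1 was the higher library. The log2 fold change, serum over 2i, was 0.05 (SE 0.45), with a 95% interval from -1.02 to 1.13 and an adjusted p of 0.983 in limma. A ratio between 0.494 and 2.18 therefore lay within the interval, and a moderate difference in either direction was not detectable. Its sign turned under upper quartile scaling (-0.074), quantile normalization (-0.033) and a correction for GC content and length (-0.23).

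Cdkn1c (ENSMUSG00000037664, mm9 chr7:150644255-150646955, minus strand) is imprinted and expressed from the maternal copy. It was the lowest member, at 20.0 and 76.8 normalized counts in serum against 21.8 and 101 in 2i. These rest on 20 and 79 reads in serum against 21 and 104 in 2i. Replicates differed more than conditions, by 1.89 and 2.16 on the log2 scale within serum and 2i, while the log2 fold change was -0.25 (SE 1.26, adjusted p 0.973 in limma).

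Skp2 (ENSMUSG00000054115, mm9 chr15:9041742-9070207, minus strand) had a log2 fold change of 1.48 (SE 0.44), which is a ratio of 2.79 with a 95% interval from 1.34 to 5.80. Taken library by library, serum exceeded 2i in all 4 combinations, by 1.22 to 1.74 on the log2 scale. Replicates differed by 0.50 in serum and by 0.02 in the other direction in 2i (-0.02). The limma p was 0.0134 before and 0.753 after adjustment over all genes. Unadjusted p-values under 0.05 with higher serum values were found for 2.97% of genes tested, and Skp2 was the only member among them. DESeq2 on the recovered whole reads gave the same log2 fold change, 1.48, with an adjusted p of 0.0370, a call it made for 0.561% of genes as higher in serum. edgeR gave an adjusted p of 0.692. Without serum replicate 2 the unadjusted limma p of Skp2 was 0.106.

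Cks1b (ENSMUSG00000028044, mm9 chr3:89219394-89222305, minus strand) measured 985 and 1674 normalized counts in serum against 689 and 979 in 2i. Its lower serum library stood only 0.0085 on the log2 scale above its higher 2i library. The log2 fold change was 0.64 (SE 0.49, adjusted p 0.765 in limma). Leaving out serum replicate 2 gave 0.26, leaving out 2i replicate 1 gave 0.39, and leaving out serum replicate 1 gave 1.03. Cks2 (ENSMUSG00000062248, mm9 chr13:51740601-51746029, plus strand), the paralog of Cks1, measured 594 and 1428 in serum against 425 and 470 in 2i. Its log2 fold change was 1.04 (SE 0.55, adjusted p 0.753 in limma), which became 0.41 when serum replicate 2 was left out and 1.67 when serum replicate 1 was.

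Cks2 shares sequence with pseudogene copies, and only 69.5% of its 43-base words occur in no other gene. One copy, Gm15452, was listed at 528 and 444 normalized counts in replicate 1 of serum and 2i and at 0 in replicate 2 of both. Because the authors' method divides shared reads by estimation, the split between Cks2 and Gm15452 is uncertain. The summed counts of Cks2 and Gm15452, a sum chosen after the values were seen, were 1123 and 1428 in serum against 869 and 470 in 2i, and the 2 conditions still did not overlap. The log2 difference of that sum was 0.98.

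For all 3 core subunits the serum and 2i values overlapped. Skp1a (ENSMUSG00000036309, mm9 chr11:52045497-52060360, plus strand) measured 3441 and 7657 normalized counts in serum against 4970 and 9788 in 2i. Its log2 fold change was -0.44 (SE 0.63, adjusted p 0.876 in limma). Cul1 (ENSMUSG00000029686, mm9 chr6:47403397-47476138, plus strand) measured 2190 and 3359 in serum against 881 and 3410 in 2i, so that its 2i libraries bracketed its serum libraries. Its log2 fold change was 0.65 (SE 0.71, adjusted p 0.836 in limma), and -0.33 without 2i replicate 1. Its exons overlap those of the antisense gene A930035D04Rik over 192 bases.

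Rbx1 (ENSMUSG00000022400, mm9 chr15:81296746-81306799, plus strand) measured 1047 and 1858 normalized counts in serum against 812 and 2442 in 2i, a log2 fold change of -0.01 (SE 0.65, adjusted p 0.997 in limma). Its copy Gm9840, with which it shares reads, was listed at 1069 in serum replicate 1 and between 95.5 and 139 in the other 3 libraries. Summed with Gm9840, a sum again chosen after the values were seen, Rbx1 had 2115 and 1997 in serum against 907 and 2553 in 2i. The groups still overlapped, and the log2 difference of that sum was 0.43.

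Of the other receptors, Fbxw7 (ENSMUSG00000028086, mm9 chr3:84619190-84783120, plus strand) measured 817 and 1015 normalized counts in serum against 544 and 691 in 2i. Its log2 fold change was 0.57 (SE 0.44, adjusted p 0.767 in limma), and replicates differed by 0.31 in serum and 0.34 in 2i. Its exons overlap those of the antisense gene Dear1 over 135 bases. Btrc (ENSMUSG00000025217, mm9 chr19:45438224-45607831, plus strand) measured 426 and 470 in serum against 421 and 737 in 2i. Its groups overlapped, and its log2 fold change was -0.32 (SE 0.48, adjusted p 0.893 in limma).

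**Figure D2:**
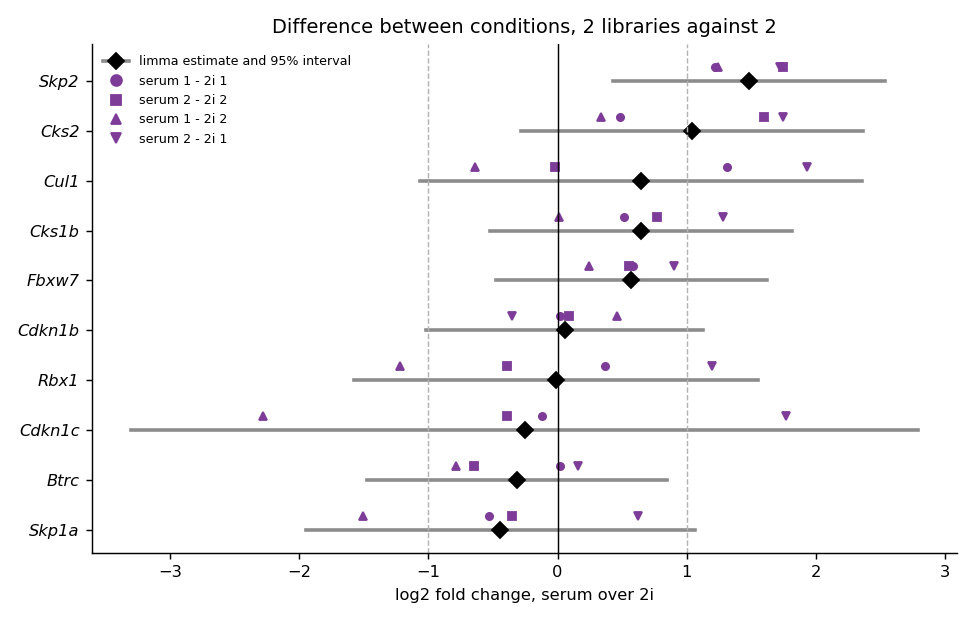
Log2 fold change, serum over 2i, of each member from limma on log2(normalized count + 1) (diamonds) with its 95% interval (bars), the differences between single libraries as small symbols, and dashed lines at a 2-fold difference. The interval of Skp2 runs from 0.43 to 2.54 and lies above 0, whereas those of the other 9 members include 0.

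Both serum libraries stood above both 2i libraries for 4 of 10 members, namely Skp2, Cks1b, Cks2 and Fbxw7, against 20.5% of genes tested. No member had both 2i libraries above both serum libraries, a pattern of 19.4% of genes tested, and the groups of the other 6 overlapped. The difference between conditions exceeded both differences between replicates for 2 members, Skp2 and Fbxw7, against 26.3% of genes tested. In both conditions replicate 2 exceeded replicate 1 for 8 members, against 29.2% of genes tested. Cdkn1b was the only member with the reverse order in both. The median log2 fold change of the members was 0.31, and that of all genes tested was 0.0047. The members' median was -0.028 without 2i replicate 1, 0.71 without serum replicate 1 and 0.78 without 2i replicate 2.

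Per kilobase of exon, Skp1a was the most abundant member, with a mean over the 4 libraries of 2924 normalized counts per kb. Cks2 followed at 1054, Cks1b at 961, Rbx1 at 930 and Cul1 at 606. Cdkn1b stood at 170, Skp2 at 149, Fbxw7 at 109, Btrc at 81.3 and Cdkn1c at 28.4. Ranges of neighbours in this order overlapped except at 2 places. Cul1, at 217 to 840, stood above Cdkn1b, at 142 to 195, and Btrc, at 66.7 to 117, above Cdkn1c, at 10.4 to 52.2. The means of the 3 receptors lay below those of the 3 core subunits. Skp2 stood above Cdkn1b per kb only in serum replicate 2. Skp2 measured 182 and 258 per kb in serum against 78.2 and 77.0 in 2i, against 195 and 151 and then 192 and 142 for Cdkn1b.

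**Figure D3:**
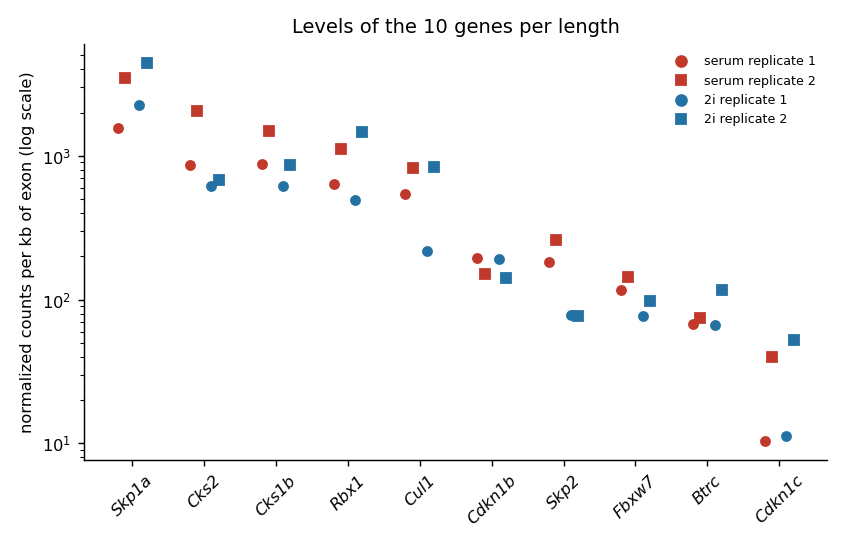
Normalized counts per kb of exon for each member and library, on a log axis. Skp1a lies highest, at 1556 to 4427 per kb, and Cdkn1c lowest, at 10.4 to 52.2 per kb.

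A ratio of 2 genes within a library does not depend on how libraries are scaled. Skp2 over Cdkn1b was 1.27 and 2.34 in serum against 0.555 and 0.740 in 2i. Both serum ratios lay above both 2i ratios, with a difference of 1.43 on the log2 scale and a pooled SD within groups of 0.48. Cks1b over Cdkn1b was 1.11 and 2.44 in serum against 0.789 and 1.52 in 2i, and these ranges overlapped. Cks2 over Cdkn1b was 0.670 and 2.08 in serum against 0.486 and 0.729 in 2i, which also overlapped. These ratios are a description and were not tested.

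**Figure D4:**
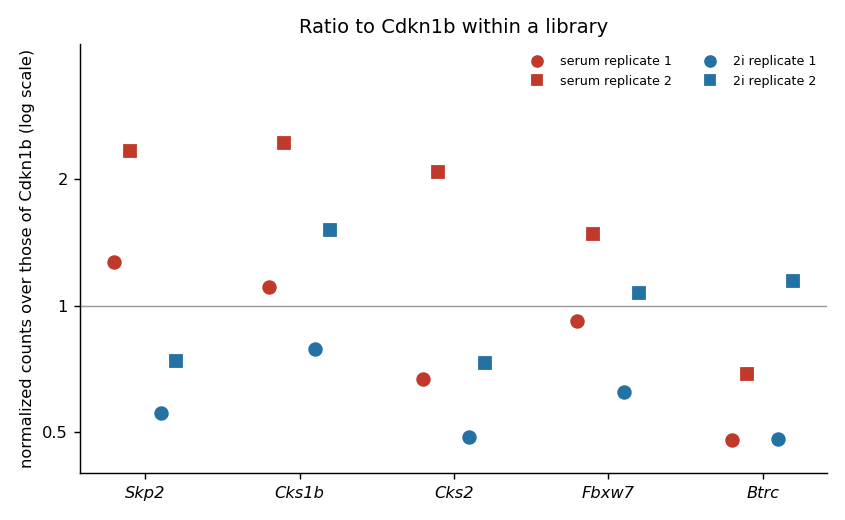
Ratio of Skp2, Cks1b, Cks2, Fbxw7 and Btrc to Cdkn1b within the same library, on a log axis. For Skp2 the serum libraries stand at 1.27 and 2.34 and the 2i libraries at 0.555 and 0.740.

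The start regions of Skp2, Cks1b and Cks2, which stood apart by condition, and of Cdkn1b, which did not, are shown here (Fbxw7 also stood apart, but has 3 listed starts) for the motifs of cell-cycle genes. Each run is the 250 bases before a RefSeq start site (GRCm38.p6, a later build than the mm9 positions above), 5' to 3' on the gene's strand. Capitals mark the CCAAT box and the cell-cycle homology region (CHR, TTTGAA or TTCGAA), searched on both strands. The positions are chr15:9140455-9140704 (minus) for Skp2, chr3:89418292-89418541 (minus) for Cks1b, chr13:51644982-51645231 (plus) for Cks2 and chr6:134920151-134920400 (plus) for Cdkn1b.
Skp2: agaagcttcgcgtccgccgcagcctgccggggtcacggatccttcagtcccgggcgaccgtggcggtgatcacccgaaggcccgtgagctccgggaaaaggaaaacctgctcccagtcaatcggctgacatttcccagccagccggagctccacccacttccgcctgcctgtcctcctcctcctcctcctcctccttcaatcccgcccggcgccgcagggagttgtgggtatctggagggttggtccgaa
Cks1b: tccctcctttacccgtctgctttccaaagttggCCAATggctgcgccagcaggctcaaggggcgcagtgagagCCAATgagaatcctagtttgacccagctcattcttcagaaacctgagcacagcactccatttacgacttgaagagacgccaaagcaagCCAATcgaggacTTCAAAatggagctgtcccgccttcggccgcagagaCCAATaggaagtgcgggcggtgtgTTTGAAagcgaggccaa
Cks2: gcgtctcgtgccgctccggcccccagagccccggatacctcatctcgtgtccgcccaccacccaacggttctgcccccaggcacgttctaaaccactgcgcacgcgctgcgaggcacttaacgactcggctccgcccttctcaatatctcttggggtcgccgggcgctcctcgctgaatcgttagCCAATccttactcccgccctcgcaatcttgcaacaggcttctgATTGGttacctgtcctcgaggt
Cdkn1b: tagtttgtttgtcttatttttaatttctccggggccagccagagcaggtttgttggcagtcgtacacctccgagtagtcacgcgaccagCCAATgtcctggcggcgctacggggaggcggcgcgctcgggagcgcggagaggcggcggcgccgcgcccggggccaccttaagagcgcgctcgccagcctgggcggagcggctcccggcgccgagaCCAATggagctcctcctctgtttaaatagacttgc

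Including the 50 bases after the start, Cks1b held 4 CCAAT boxes and 2 CHR sites, Cks2 held 4 CCAAT boxes, Cdkn1b held 3 and Skp2 held neither motif. The 3 start regions of Fbxw7 held none of the motifs searched. Of all 32851 start regions of this length, 37.4% held a CCAAT box and 19.2% a CHR. The letters searched for E2F (TTTCCCGC, TTTCGCGC, TTTGCCGC or TTTGGCGC), FOXO (TGTTTAC) and the E-box (CACGTG) were in none of the 4 regions, against 2.26%, 3.65% and 7.15% of all regions. Among other members, Rbx1 held an E2F match and a CCAAT box, Skp1a a CHR, and a start region of Cul1 an E-box. The serum and 2i values of these members overlapped. No motif overlapped another. Skp2 has a further annotated start, whose region held 1 CCAAT box and 2 CHR sites but no letters of E2F, FOXO or the E-box. The Skp2 transcripts in the mm9 annotation begin at or near the start shown, however. The mm9 transcript matched to Cks1b begins further upstream than the start shown for that gene. Cks1b sites near the start shown, its CHR sites among them, may therefore lie inside that transcript rather than before it. Promoters were matched for 8 of 10 members, and Cdkn1c and Btrc had none. A match describes letters and is no evidence that a factor binds.

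The wider SCF and p27 pathway was followed in 41 further genes, of which 40 were tested. None was called by limma, and 0 had an unadjusted p under 0.05. Serum values were higher for 26 and lower for 14, with a median log2 fold change of 0.11 and a range from -1.003 to 1.31. That median turned to -0.018 with upper quartile scaling, to -0.0060 with quantile normalization, to -0.0090 without serum replicate 2 and to -0.088 without 2i replicate 1. Leaving out serum replicate 1 or 2i replicate 2 moved it to 0.29 or 0.35. Both serum libraries stood above both 2i libraries for 7 of the 40 genes, and the reverse held for 3, against 20.5% and 19.4% of all genes tested. Fbxo4, an F-box protein, lay under the floor.

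Among Nedd8, the factors that attach it to cullins and the exchange factor Cand1, the extremes were Dcun1d1 at 0.65 and Ube2m at -0.24 on the log2 scale. In the COP9 signalosome, which removes Nedd8, they were Cops5, its catalytic subunit, at 0.68 and Cops6 at -0.06. Ubiquitin-conjugating enzymes ran from Cdc34 at -0.01 to Ube2d3 at 0.71. Every value in these sentences is a difference of serum over 2i and none passed the test. Other F-box receptors ran from Fbxo31 at -0.85 to Ccnf (cyclin F) at 0.72, with Ccnf at 2107 and 2109 normalized counts in serum against 1259 and 1298 in 2i. Among other factors of p27, Skp2 and Fbxw7 turnover and transcription, the deubiquitinase Usp28, which counters Fbxw7, stood highest at 1.31, and the ligase Rnf123, which acts on p27, lowest at -0.51. Usp28 measured 1635 and 2646 in serum against 1494 and 472 in 2i.

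Paralogs of members did not separate by condition. Cdkn1a, which encodes the kinase inhibitor p21, had a log2 fold change of -1.003 (SE 0.86, adjusted p 0.781 in limma), from 1089 and 386 normalized counts in serum against 2825 and 599 in 2i. Rnf7, the paralog of Rbx1, stood at -0.87, with 1672 and 1857 in serum against 1817 and 5693 in 2i. Fbxw11, the paralog of Btrc, stood at 0.06, with 1263 and 1389 in serum against 946 and 1700 in 2i.

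**Figure D5:**
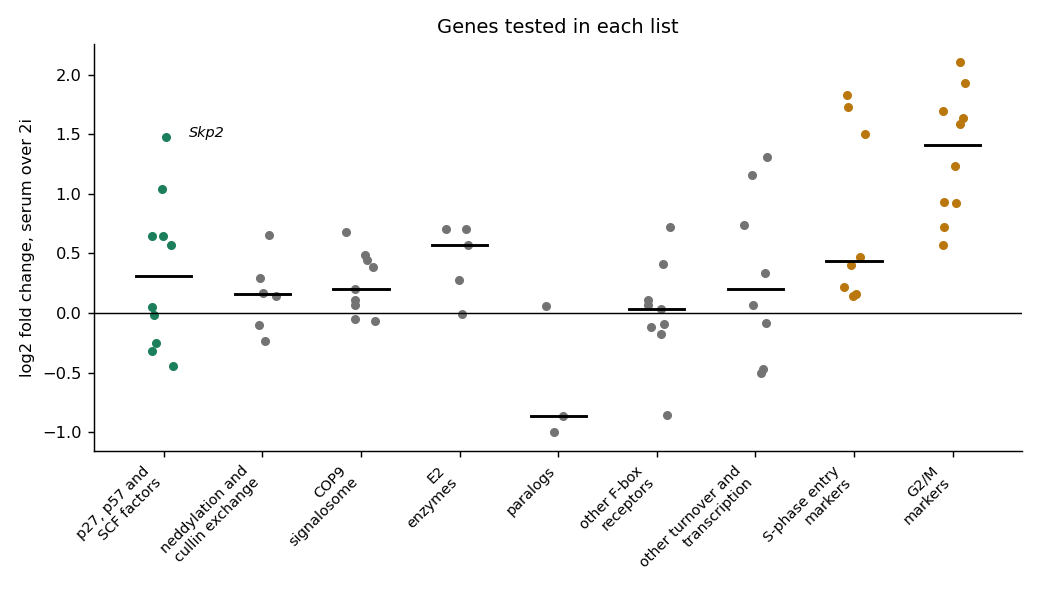
Log2 fold change, serum over 2i, of each tested gene (points) of the member, pathway and cell-cycle marker lists, with a black line at each list's median. Pathway genes lie between -1.003 and 1.31, and all 10 G2/M markers lie above 0.

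The genes whose pattern over the 4 libraries was most like that of a separated member, by root mean square distance of centred log2 values among 50 candidates, were Foxo4 for Skp2 (0.287) and Cks2 (0.0967), Ube2d3 for Cks1b (0.0767) and Cops5 for Fbxw7 (0.145). Foxo4, a forkhead transcription factor, measured 942 and 2014 normalized counts in serum against 559 and 683 in 2i.

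The imprinted domain around Cdkn1c was followed in 10 genes, of which 6 were in the table and 4 were tested, and none was called by limma. Its median log2 fold change was 0.05. Phlda2, also expressed from the maternal copy, measured 39.0 and 112 normalized counts in serum against 33.2 and 23.3 in 2i, the highest log2 fold change of the list at 1.22. However, Phlda2 passed the floor only through serum, with a mean of 75.4 against 28.3 in 2i. Its serum replicates differed by 1.49 on the log2 scale, more than the conditions did. Cd81, a tetraspanin gene at the edge of the domain, was the lowest at -1.04, with 2476 and 1376 in serum against 3010 and 4822 in 2i. Slc22a18, chosen after its values were seen and too low to be tested, had 15.01 and 17.5 in serum against 48.8 and 50.4 in 2i. Of the 4 tested, 2 were higher and 2 lower in serum.

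Cell-cycle markers were followed beside the members, and none was called by limma. All 10 G2/M markers had a higher mean log2 value in serum, 9 without overlap (20.5% of all genes tested) and 6 with an unadjusted limma p under 0.05 (2.97% of all genes tested). They summed to 24771 and 34523 normalized counts in serum against 15733 and 12305 in 2i. All 8 S-phase entry markers also had a higher mean log2 value in serum. Of these, 3 did not overlap (20.5% of all genes tested), 2 had an unadjusted limma p under 0.05 (2.97%) and 5 overlapped. One of the latter, Mcm5, had a mean of 7475 normalized counts in serum and 7525 in 2i. The S-phase entry markers summed to 31125 and 40728 in serum against 17688 and 32286 in 2i. Primitive endoderm markers, of which 4 of 7 were in the table, summed to 72.0 and 109 in serum against 332 and 256 in 2i. Gata4 was the largest part of the 2i sums, at 152 and 169. Gata4 and Gata6 passed the floor only through 2i, and Sox17 and Pdgfra lay under it. Of the 4, only Pdgfra overlapped, at 47.0 and 41.8 in serum against 60.2 and 27.2 in 2i. Of 7 fibroblast markers, Col1a1 and Thy1 were in the table, with log2 fold changes of opposite sign (-1.33 and 2.40), and they summed to 230 and 193 in serum against 199 and 58.2 in 2i. No marker present in the table was at 0 in any library. The part of these markers, and of the unequal protein-coding share, in the member values was not tested.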

How the data were processed

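RNA-seq of 4 libraries was analysed, 2 serum and 2 2i. Per the study's methods the authors depleted ribosomal RNA, sequenced randomly primed fragments, aligned reads with Bowtie to mm9 and estimated expression with MMSeq, which divides reads shared by several transcripts. The deposited values are a signal, namely counts per gene scaled by the authors with DESeq2 size factors. All values (100%, tolerance 0.001 read) were whole multiples of one step per library. Tool versions used by the authors are not given in the sources used here. Gene models were GENCODE vM1 (mm9), which held 14462 of 14533 genes. Genes that averaged 50 or more in either group were fitted with limma 3.58.1 (R 4.3.3) on log2(normalized count + 1), a scale that understates changes of low genes, with a variance trend, no replicate term and Benjamini-Hochberg adjustment over 13005 genes. A call needed an adjusted p under 0.05 and 2-fold. edgeR 4.0.16 and DESeq2 1.42.0 were run on whole reads, and mgcv 1.9.3 corrected for GC content and length. The fit was run on simulated counts as a check of the code, and no power for these libraries is claimed from it. The common biological coefficient of variation, a measure of spread between replicates, was 0.668 in edgeR. Other settings were pseudocounts, filters, scalings, a replicate block and leaving out each library. Named genes were the members, the extremes of each pathway list, all paralogs and genes said to be chosen after seeing their values. Members and lists were chosen with earlier results of these data known. The series description mentions a biological replicate without naming separate cultures, so p-values measure the spread between these libraries.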

Additional observations from a re-analysis of the deposited data

How the results depend on the processing

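Skp2, Cks1b, Cks2 and Fbxw7 stayed higher in serum under every setting run, including each library left out. Members called numbered 1, Skp2, with DESeq2 on whole reads (log2 fold change 1.48, adjusted p 0.0370) and 1 with an unadjusted p under 0.05 and 2-fold in place of the adjusted p, against 0 in the main limma fit and under the other settings. The median of the members ran from -0.028 to 0.78 when a library was left out, lowest without 2i replicate 1 and 0.71 without serum replicate 1. Cdkn1b turned to -0.074 with upper quartile scaling, which moved the median of all genes to -0.13, to -0.033 with quantile normalization, to -0.23 with the GC content and length correction, alone or with the replicate block, and ran from -0.16 to 0.27 when a library was left out. Cdkn1c turned to 0.39 with quantile normalization and 0.15 with the GC content and length correction, alone or with the block, and ran from -1.33 to 0.69. Rbx1 turned to 0.036 with that correction, alone or with the block, and ran from -0.81 to 0.78. Skp1a ran from -1.02 to 0.13, Cul1 from -0.33 to 1.62 and Btrc from -0.72 to 0.087. The cause of these turns was not tested. Cdkn1c could not be tested without 2i replicate 2. Over all genes, limma called 0 higher in serum and 2 higher in 2i, DESeq2 73 and 178, edgeR 0 and 0, the GC content and length correction 0 and 1, a mean of at least 200 0 and 4, and leaving out serum replicate 1 0 and 8. With the replicate block the calls were 44 and 159, Skp2 had an adjusted p of 0.225, and 0 members were called, and with the correction as well 2 and 12. Differences between replicates correlated across genes at 0.48 over 2 pairs. No label ties a replicate number to a shared culture or day, and with 2 pairs the block was kept as an alternative. Depth was lowest for Cdkn1c, at 20 to 104 reads per library, and the spread between only 2 libraries per group limits all members.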
